A study of Mus musculus with 13 samples.

Results

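The RAS-MAPK feedback genes Dusp4, Dusp6, Spry1, Spry2, Spry4, Spred1, Spred2, Etv1, Etv4 and Etv5 were examined in H3K27ac chromatin immunoprecipitation sequencing (ChIP–seq) peak lists of 9 mouse melanoma cell lines that carry oncogenic NRAS. The 10 genes were chosen by name and are 10 of the 21728 protein-coding genes on the autosomes and X chromosome of the mm10 (GRCm38) annotation. H3K27ac is an acetylation of histone H3 found at active promoters and enhancers, and a peak is a stretch where ChIP reads are enriched. For each gene the peaks that touch a window of the gene body plus 20 kb on either side were collected in every list. The measures were the covered length in kb, the percentile of the strongest peak among all peaks of its own list by −log10 q, and the promoter call, which is positive where any peak comes to within 1 kb of an annotated start. Positions are given in kb from the annotated gene start along the strand of the gene, negative upstream.

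When RAS is active, it turns on the kinases RAF, MEK and ERK in sequence, and ERK then induces genes whose products damp the same pathway. Dual-specificity phosphatases of the DUSP family remove the activating phosphates from ERK, and Sprouty and SPRED proteins act further upstream, at the level of receptor adaptors, RAS and RAF. ETV1, ETV4 and ETV5 form the PEA3 group of ETS transcription factors and are widely used, with DUSP and Sprouty genes, as readouts of ERK output. Melanocytes depend on growth factor signalling through this pathway, and activating NRAS mutations are among its common lesions in melanoma.

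All 9 lines came from melanomas of mice of the genotype Tyr::NRAS Q61K/°, Cdkn2a +/- and Cdh1 F/F, so every line carried the NRAS transgene, driven by the tyrosinase promoter of the melanocyte lineage, on a background with 1 disrupted copy of the tumour suppressor Cdkn2a. The Ecad lines kept E-cadherin, whose gene is Cdh1. The ΔEcad lines came from mice that also carried Tyr::CreA/°, a Cre recombinase active in melanocytes that removes the floxed Cdh1 alleles. The male Ecad lines were Ma_1007 and Ma_1181, the female Ecad lines Ma_1014 and Ma_1039, the male ΔEcad lines Ma_1062 and Ma_1456, and those of the female ΔEcad group Ma_1057, Ma_1064 and Ma_1069. The study asked how E-cadherin loss acts in each sex. Each line gave 1 peak list, so a line is the replicate, and the samples include no non-transgenic line with which NRAS itself could be compared.

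The lists held between 20741 peaks in Ma_1069 and 41663 in Ma_1007, and they covered between 29.5 and 67.2 Mb. Ma_1007 stood apart with the longest list and the widest cover, and the female ΔEcad lists were on average the shortest in cover, at 34.4 ± 5.03 Mb (SD, n = 3) against 47.5 ± 10.5 Mb in the other 6 lines. The read depth behind the lists is not known from the files. Promoters of 6 of 7 melanocyte lineage markers, Sox10, Mitf, Dct, Tyr, Mlana and Pmel, were called in all 9 lists, and that of Tyrp1 in 6. No keratinocyte or leukocyte marker promoter was called in any list, and 1 fibroblast marker, Pdgfra, and 1 endothelial marker, Tek, were called only in Ma_1007. The Cdh1 promoter was called in 0 of 9 lists, Ecad lines included, so promoter calls do not check the genotype labels. In lists from bulk cells, fewer cells with the mark and less mark in each cell cannot be told apart.

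The promoters of all 10 feedback genes were called in 9 of 9 lists. Over all protein-coding genes, 21.2% had a promoter called in every list. Of the 18 core cascade genes, from the RAS genes and their adaptors to MEK and ERK, 9 were called in every list and 9 in some. Of the 9 annotated genes among the other ERK phosphatases and feedback relatives, 5 were called in every list, Spred3 in 8, Dusp2 in 4, Dusp5 in 1 and Dusp9 in none. Of the 11 other ERK-responsive genes, 5 were called in every list and Epha4 in none.

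**Figure D1:**
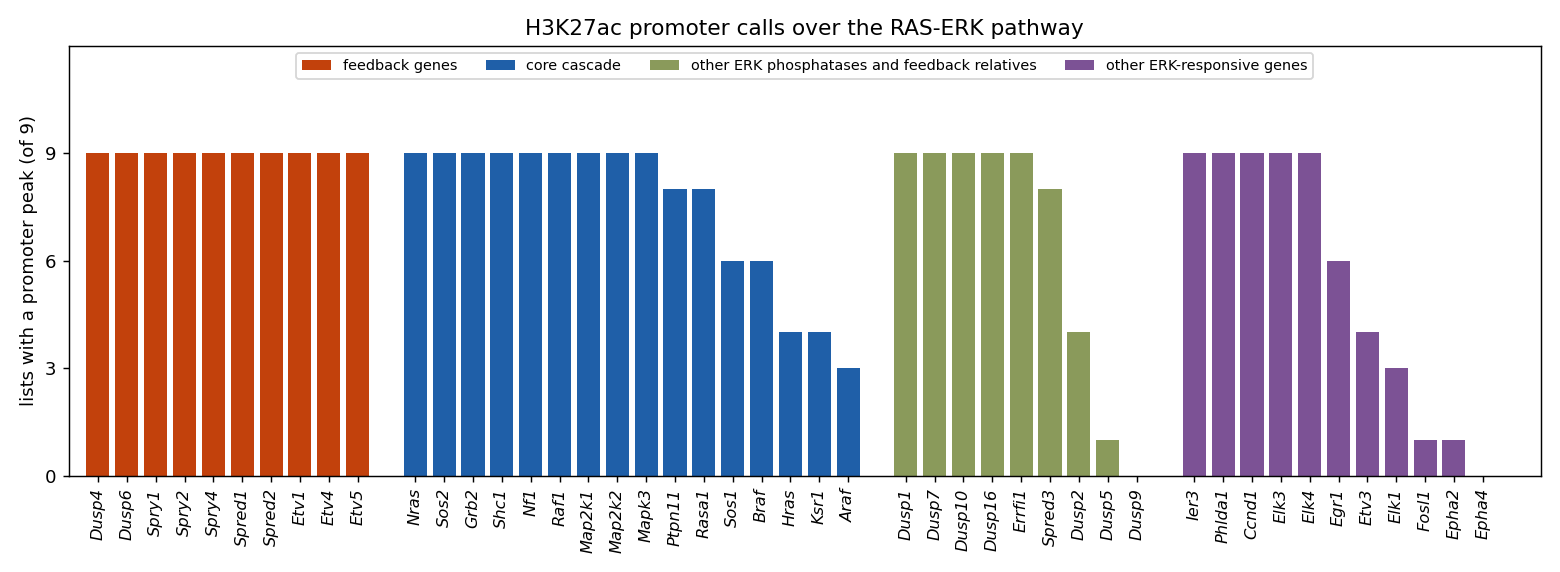
Number of the 9 H3K27ac lists with a peak within 1 kb of an annotated start (bars, from 0 to 9) for genes of the RAS-ERK pathway, coloured by gene list. All 10 feedback genes reach 9, as do 9 of the core cascade genes drawn.

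The feedback genes' median covered length, averaged over the lines, was 12.58 kb, against 2.35 kb over the 14737 genes with a peak in at least 3 lists, a filter that all 10 passed. Since windows differ in length, the level of each gene is given as the covered percentage of its window. Dusp6 came first at 48.6%, followed by Dusp4 at 37.2%, Spry4 at 27.9%, Spry2 at 21.8%, Etv5 at 21.4% and Etv1 at 18.4%. The lower end was formed by Etv4 at 11.4%, Spred1 at 8.88%, Spry1 at 6.75% and Spred2 at 5.65%. Among all genes with a peak in at least 3 lists the median was 3.18%, and Dusp6 stood at the 99.97th percentile while Spred2 stood at the 70.9th. The order depends on the measure. By covered length in kb the percentiles ran from 59.8 for Spry1 to 99.1 for Etv1, with Spred2 at 89.0 and Dusp6 at 98.8. The genes varied unequally between lines, with a coefficient of variation of the covered length of 10.96% for Spry2 and 11.7% for Dusp6 at one end and 83.2% for Spry1 at the other. The median of that coefficient over all genes tested was 58.4%.

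**Figure D2:**
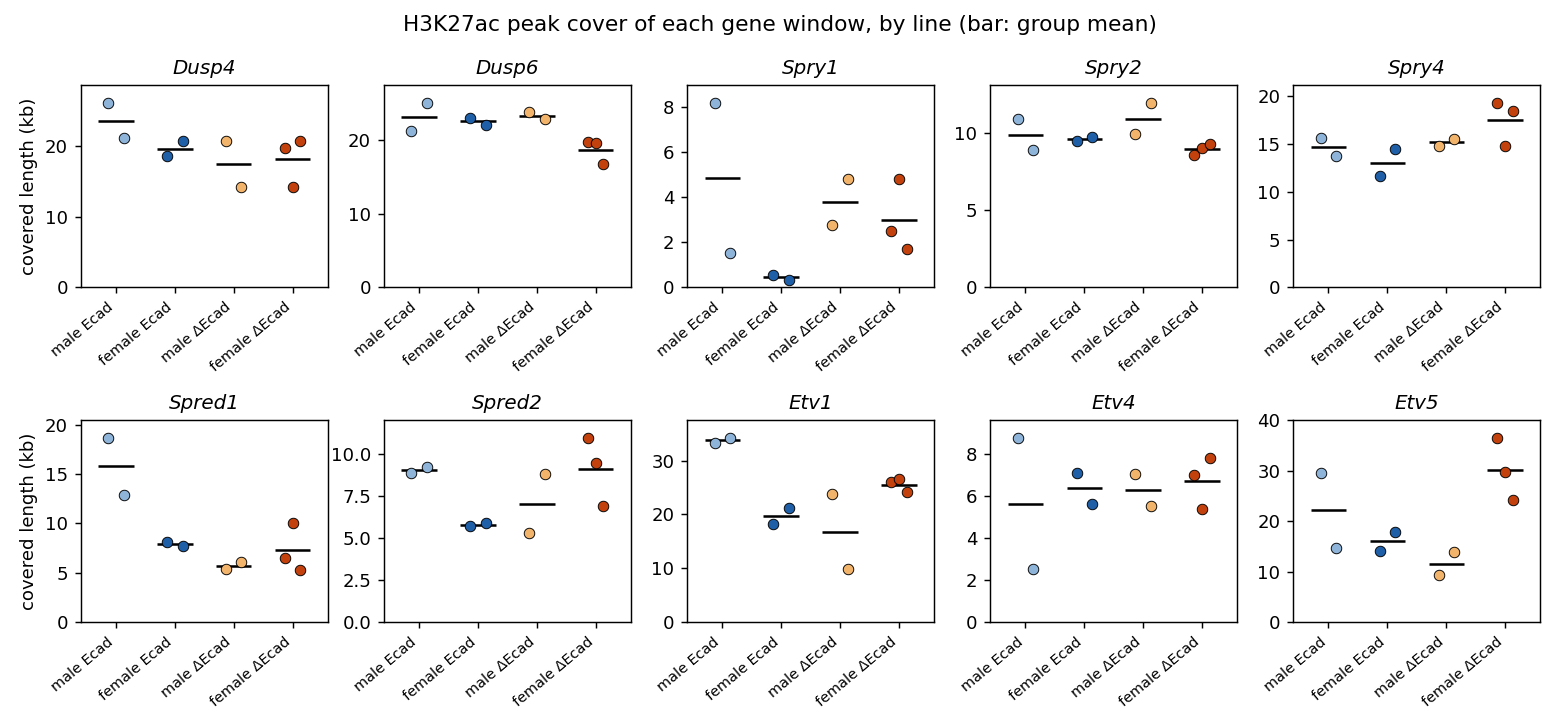
Covered length in kb (y axis, from 0) of each of the 10 gene windows, with 1 point per line, the lines in 4 groups by sex and genotype and a bar at each group mean. The 3 female ΔEcad lines lie between 24.1 and 36.4 kb for Etv5 and between 16.7 and 19.8 kb for Dusp6.

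Dusp6 encodes a cytoplasmic phosphatase specific for ERK. It lies at chr10:99263231-99267489 on the plus strand, and its window held 3 elements, each marked in all 9 lists. An element is a run of overlapping peaks merged over the lists and is given whole, also where it reaches beyond the window. The promoter element ran from −7.52 to +7.5 kb, the downstream element from +19.4 to +23.2 kb and the upstream element from −30.9 to −13.1 kb. Starts of long non-coding RNA genes also lie in these elements or within 1 kb of them. They are those of Gm34777 for the upstream element and of Gm34921 and Gm48089 for the promoter element. In 8 of 9 lists a peak of the upstream element had its summit at −20.1 kb, within 27 bp of the same place. These peaks stood at percentiles of 99.21 to 99.95 in their lists, with fold enrichments of 59.2 to 143 at the summit, and in 7 of the lists this was the strongest peak of the window. Ma_1014 was the line without a summit there. Its peak covered this place but had its summit nearby at −19.8 kb, at a percentile of 99.08 and a fold enrichment of 72.0.

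The reference sequence around this summit and that of the Dusp6 promoter are printed because Dusp6 had the highest covered share of its window and its upstream summit ranked near the top of the lists. Both are from GRCm38, the plus strand, the first at chr10:99243007-99243306, overlapping an exon of the long non-coding RNA gene Gm34777, and the second at chr10:99262981-99263230, the 250 bases before the RefSeq start. No capitals are used, since none of the motifs searched was found in either.
Dusp6 upstream site: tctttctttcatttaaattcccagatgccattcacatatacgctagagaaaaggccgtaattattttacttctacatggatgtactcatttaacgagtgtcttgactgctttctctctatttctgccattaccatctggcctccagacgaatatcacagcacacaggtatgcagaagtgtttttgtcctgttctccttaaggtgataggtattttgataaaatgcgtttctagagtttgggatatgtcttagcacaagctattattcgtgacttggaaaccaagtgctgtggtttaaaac
Dusp6 promoter: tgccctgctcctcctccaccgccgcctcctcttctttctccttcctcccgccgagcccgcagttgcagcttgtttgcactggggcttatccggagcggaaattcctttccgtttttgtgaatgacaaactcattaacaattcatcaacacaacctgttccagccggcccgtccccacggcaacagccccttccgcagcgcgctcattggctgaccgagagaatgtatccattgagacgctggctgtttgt

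Dusp6 was covered over 21.2 and 24.9 kb in male Ecad, 22.9 and 22.1 kb in female Ecad, 23.7 and 22.8 kb in male ΔEcad and 19.8, 19.6 and 16.7 kb in female ΔEcad lines. The 3 female ΔEcad lines were the lowest of the 9 and did not overlap the other 6. The means were 18.7 ± 1.74 kb (n = 3) and 23.0 ± 1.29 kb (n = 6), a difference of −4.27 kb (exact permutation test over lines, two-sided, p = 0.0119, the smallest that 3 against 6 lines allow, adjusted p over all genes 0.0781). Groups that did not overlap in this direction were common, at 26.2% of all genes tested. Per Mb of list cover the difference turned to +0.0422 kb per Mb (p = 0.619, exact permutation test). Within the gene body alone it was 0 and could not be otherwise, since in every list a single peak covered the whole body of 4.26 kb.

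The downstream element was the one Dusp6 element with an unadjusted p under 0.05. It was covered over 1.47 and 3.45 kb in male Ecad, 3.34 and 3.25 kb in female Ecad, 3.43 and 3.79 kb in male ΔEcad and 1.03, 1.84 and 0.547 kb in female ΔEcad lines. Ma_1007, a male Ecad line, fell within the female ΔEcad range. The difference was −1.99 kb (exact permutation test, two-sided, p = 0.0238, adjusted p over 31015 regions 0.168). The upstream element, by contrast, gave a difference of −2.90 kb with p = 0.131 in the same exact permutation test, its shortest cover being 9.64 kb in Ma_1064 and 9.69 kb in the male line Ma_1456. The strongest Dusp6 peak, which is in that upstream element in most lists, had percentiles of 99.81 to 99.95 in the 5 ΔEcad lines and 99.19 to 99.83 in the 4 Ecad lines, and of the latter only Ma_1181 reached into the ΔEcad range.

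Dusp4, at chr8:34807297-34819894 on the plus strand, encodes a nuclear phosphatase of ERK and related kinases. It was covered over 26.0 and 21.1 kb in male Ecad, 18.6 and 20.7 kb in female Ecad, 20.8 and 14.1 kb in male ΔEcad and 19.7, 14.2 and 20.7 kb in female ΔEcad lines. Both male Ecad lines lay above all other lines, and the other groups overlapped. The lowest values were those of Ma_1456 and Ma_1064, a male and a female ΔEcad line. A single element from −4.52 to +17.4 kb, spanning the whole gene, held 13.9 to 21.1 kb of this in every list. No comparison gave an unadjusted p under 0.05 for Dusp4, the difference of the female ΔEcad lines from the rest being −2.003 kb (exact permutation test, two-sided, p = 0.440). The start of the protein-coding neighbour Tnks also lies in the window but in none of its elements.

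Spry2, at chr14:105891947-105896819 on the minus strand, encodes a Sprouty protein induced by growth factors that dampens receptor tyrosine kinase signalling. Its cover was the most even of the 10 genes. It was covered over 10.9 and 8.90 kb in male Ecad, 9.49 and 9.74 kb in female Ecad, 9.95 and 11.96 kb in male ΔEcad and 8.57, 9.09 and 9.31 kb in female ΔEcad lines. Of all bases covered in any list, 67.4% were covered in all 9. Summits were shared by all 9 lists at −1.90 kb, within 96 bp, and at +0.109 kb, within 378 bp. The element around the first of these, from −3.67 to −0.535 kb, was shorter in the female ΔEcad lines, at 2.14 ± 0.131 kb against 2.73 ± 0.350 kb (difference −0.595 kb, exact permutation test, two-sided, p = 0.0476, adjusted p over regions 0.244), while Ma_1181, a male Ecad line, lay among the female ΔEcad values at 2.08 kb.

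The Spry2 promoter, the 250 bases before the gene start in GRCm38, chr14:105896820-105897069 read on the minus strand, is printed as the start region of the gene with the most even cover. It held none of the motifs searched.
Spry2 promoter: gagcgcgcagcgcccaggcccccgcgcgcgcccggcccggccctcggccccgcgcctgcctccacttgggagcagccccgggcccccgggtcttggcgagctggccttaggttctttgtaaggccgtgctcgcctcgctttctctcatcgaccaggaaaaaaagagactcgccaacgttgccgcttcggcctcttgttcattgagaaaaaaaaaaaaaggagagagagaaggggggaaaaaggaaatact

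Spry4 lies at chr18:38586247-38601415 on the minus strand and encodes another Sprouty inhibitor of RAS-ERK signalling. It was covered over 15.7 and 13.8 kb in male Ecad, 11.7 and 14.4 kb in female Ecad, 14.8 and 15.6 kb in male ΔEcad and 19.3, 14.8 and 18.5 kb in female ΔEcad lines. Ma_1057 and Ma_1069 were the highest of the 9 lines, and Ma_1064 lay inside the range of the rest. The means were 17.5 ± 2.39 kb and 14.3 ± 1.48 kb, a difference of +3.17 kb (exact permutation test, two-sided, p = 0.0476, adjusted p over all genes 0.151). The p was above 0.05 when any line other than Ma_1064 was left out, reaching 0.214 without Ma_1057. Among all genes tested, 1.66% were higher in the female ΔEcad lines by this threshold and 29.9% lower. The promoter element of Spry4 also holds the start of the long non-coding RNA gene AC133601.1, at −0.19 kb.

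Spry1, at chr3:37639947-37644598 on the plus strand, encodes a further Sprouty inhibitor and was the least even of the Sprouty genes. It was covered over 8.16 and 1.53 kb in male Ecad, 0.561 and 0.331 kb in female Ecad, 2.75 and 4.80 kb in male ΔEcad and 2.52, 4.79 and 1.68 kb in female ΔEcad lines. Only 0.199 kb, at the start, was covered in all 9 lists, which is 2.25% of the bases covered in any. The stretch from 1 to 3 kb after the start, which was picked out after the values were seen and has no test, held a peak in 5 of 5 ΔEcad lines, with a cover of 1.33 to 1.98 kb, and in 2 of 4 Ecad lines. Those 2 were male. Ma_1007 covered all 2.0 kb of it, Ma_1181 covered 0.554 kb with a peak at the 4.26th percentile of its list, and both female Ecad lines had none. Neither the covered length nor the strongest peak of Spry1 gave an unadjusted p under 0.05 in any comparison.

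Spred1 and Spred2 encode relatives of the Sprouty proteins that bring neurofibromin, a RAS GTPase-activating protein, to the membrane. Spred1, at chr2:117121374-117182279 on the plus strand, was covered over 18.7 and 12.9 kb in male Ecad, 8.09 and 7.73 kb in female Ecad, 5.36 and 6.05 kb in male ΔEcad and 6.54, 10.0 and 5.30 kb in female ΔEcad lines. The 4 Ecad lines were above 4 of the 5 ΔEcad lines, and Ma_1064 lay above both female Ecad lines. The ΔEcad mean was 6.65 ± 1.95 kb (n = 5) and the Ecad mean 11.8 ± 5.11 kb (n = 4), a difference of −5.19 kb (exact permutation test, two-sided, p = 0.0476, adjusted p over all genes 0.236, smallest possible p 0.00794). Without Ma_1007 the difference was −2.92 kb with p = 0.125 (exact permutation test), and per Mb of list cover the p was 0.206. The promoter element, from −2.38 to +5.38 kb, spanned 7.22 and 7.62 kb in male Ecad, 5.84 and 5.59 kb in female Ecad, 4.99 and 3.57 kb in male ΔEcad and 3.65, 3.44 and 3.38 kb in female ΔEcad. All 4 Ecad lines were thus above all 5 ΔEcad lines, and the longest values were those of the male Ecad lines. How many regions over the genome separate in this way was not counted. The genotype comparison was not tested over elements.

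Spred2, at chr11:19924375-20024026 on the plus strand, was covered over 8.83 and 9.19 kb in male Ecad, 5.72 and 5.87 kb in female Ecad, 5.28 and 8.79 kb in male ΔEcad and 10.9, 9.48 and 6.89 kb in female ΔEcad lines. Every list placed summits at −3.81, +0.371 and +54.8 kb. The upstream one of these elements was covered over 1.91 and 1.73 kb in male Ecad, 1.78 and 1.73 kb in female Ecad, 1.41 and 1.82 kb in male ΔEcad and 1.01, 1.22 and 0.614 kb in female ΔEcad lines. Here the female ΔEcad lines were below all the others, by 0.781 kb on average (difference −0.781 kb, exact permutation test, two-sided, p = 0.0119, adjusted p over regions 0.119), although the whole window was covered more in Ma_1057 and Ma_1064 than in any other line. Of all regions tested, 15.7% were lower at an unadjusted p under 0.05, and those without overlap were not counted. The strongest Spred2 peak had a lower percentile in female than in male lines, 81.9 ± 1.67 (n = 5) against 90.4 ± 7.26 (n = 4), a difference of −8.49 points (exact permutation test, two-sided, p = 0.0476, adjusted p over all genes 0.4657). Among the male lines, Ma_1062 stood at 80.1 and within the female range, and the p stayed under 0.05 only when that line was the one left out.

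Etv5, an ETS factor gene of the PEA3 group at chr16:22381309-22439719 on the minus strand, showed the widest difference between the female ΔEcad lines and the rest. It was covered over 29.5 and 14.7 kb in male Ecad, 14.1 and 17.9 kb in female Ecad, 9.36 and 13.8 kb in male ΔEcad and 36.4, 29.7 and 24.1 kb in female ΔEcad lines. Ma_1007, the line with the longest list, was the only other line in the female ΔEcad range. The means were 30.1 ± 6.17 kb and 16.6 ± 6.90 kb, a difference of +13.5 kb (exact permutation test, two-sided, p = 0.0238, adjusted p over all genes 0.106). Without Ma_1007 the difference was +16.1 kb with p = 0.0179 (exact permutation test), and per Mb of list cover or with lists reduced to equal cover it had p = 0.0119. With peaks of a −log10 q of at least 10 it was +11.8 kb with p = 0.0595 (exact permutation test). Leaving out any 1 of 7 lines, all but Ma_1007 and Ma_1069, brought the p to between 0.0536 and 0.0893, with differences of 10.4 to 13.8 kb.

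The strongest Etv5 peak stood at percentiles of 97.6 and 94.3 in male Ecad, 90.8 and 92.8 in female Ecad, 83.2 and 88.3 in male ΔEcad and 99.7, 99.4 and 99.5 in female ΔEcad lines. The female ΔEcad lines did not overlap the rest. The difference of the means, 99.5 ± 0.198 and 91.2 ± 4.998, was +8.37 points (exact permutation test, two-sided, p = 0.0357, adjusted p over all genes 0.146). Groups did not overlap in this direction in 1.61% of all genes tested, and 1.88% were higher and 25.6% lower by the p threshold. Etv5 was the only feedback gene past that threshold in this comparison, and the call was lost when any line other than Ma_1007 or Ma_1062 was left out, with p up to 0.107. With peaks of the gene body alone the difference was +2.08 points (exact permutation test, p = 0.560).

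The upstream element of Etv5 carried the largest difference. This element, at chr16:22453784-22472774, from −33.1 to −14.1 kb, was covered over 13.8 and 8.00 kb in male Ecad, 2.15 and 2.58 kb in female Ecad, 1.78 and 2.24 kb in male ΔEcad and 18.7, 16.6 and 16.6 kb in female ΔEcad lines. In the female ΔEcad lines the cover was nearly unbroken, and in the 4 female Ecad and male ΔEcad lines it was down to short separate peaks. The means were 17.3 ± 1.24 kb and 5.09 ± 4.86 kb, a difference of +12.23 kb without overlap (exact permutation test, two-sided, p = 0.0119, adjusted p over 31015 regions 0.119), and the p stayed at or under 0.0357 whichever line was left out. Of all regions tested, 3.86% were higher at an unadjusted p under 0.05, and those without overlap were not counted. The strongest peak of the Etv5 upstream element stood at percentiles of 99.4 to 99.7 in the female ΔEcad lines and of 40.9 to 97.3 in the others. Within the window, which ends 20 kb from the gene, separate stretches of 1.54 kb in all were covered in all 3 female ΔEcad lines and in no other line. This was the largest such total of any of the 10 genes. The promoter element, from −6.30 to +17.2 kb, was covered over 19.5 to 23.0 kb in the female ΔEcad lines and 9.01 to 21.6 kb in the others, with p = 0.0595 in the exact permutation test.

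Recurrent summits of the Etv5 upstream element at −15.9 and −22.5 kb are printed from GRCm38 on the minus strand, the strand of the gene. They are printed because they mark the stretch with the largest difference. The first window is chr16:22455494-22455793 and the second chr16:22462064-22462363. Other recurrent summits of the element are not printed, such as that at −28.9 kb in 4 lists, none of them from female ΔEcad lines. Capitals mark a match to the AP-1 motif TGANTCA, which was found in 13.47% of the centres of all regions.
Etv5 first upstream site: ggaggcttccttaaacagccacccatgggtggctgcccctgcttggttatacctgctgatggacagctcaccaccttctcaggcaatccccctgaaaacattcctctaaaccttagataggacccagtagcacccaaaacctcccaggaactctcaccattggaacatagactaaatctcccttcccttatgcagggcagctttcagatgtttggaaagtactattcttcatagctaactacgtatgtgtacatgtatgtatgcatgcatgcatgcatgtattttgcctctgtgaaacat
Etv5 second upstream site: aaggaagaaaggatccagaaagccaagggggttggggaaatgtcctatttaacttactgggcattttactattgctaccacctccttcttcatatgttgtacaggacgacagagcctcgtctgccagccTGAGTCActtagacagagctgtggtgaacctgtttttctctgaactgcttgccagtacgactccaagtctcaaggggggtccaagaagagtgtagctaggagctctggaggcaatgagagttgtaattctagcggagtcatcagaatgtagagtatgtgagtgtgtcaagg

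The first of these sites was a summit in 7 lists, within 110 bp. There the fold enrichment was 36.04 and 50.7 in Ma_1064 and Ma_1069 and 7.65 to 14.1 in the other 5 lines. Ma_1057 placed its own summit elsewhere in the same unbroken peak, at −21.8 kb. The second site was a summit in 4 lists, within 86 bp, with fold enrichments of 51.6 and 39.8 in Ma_1064 and Ma_1069 against 15.1 in Ma_1007 and 6.65 in Ma_1181. Both sites were thus also summits in the male Ecad lines, at lower fold enrichment.

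**Figure D3:**
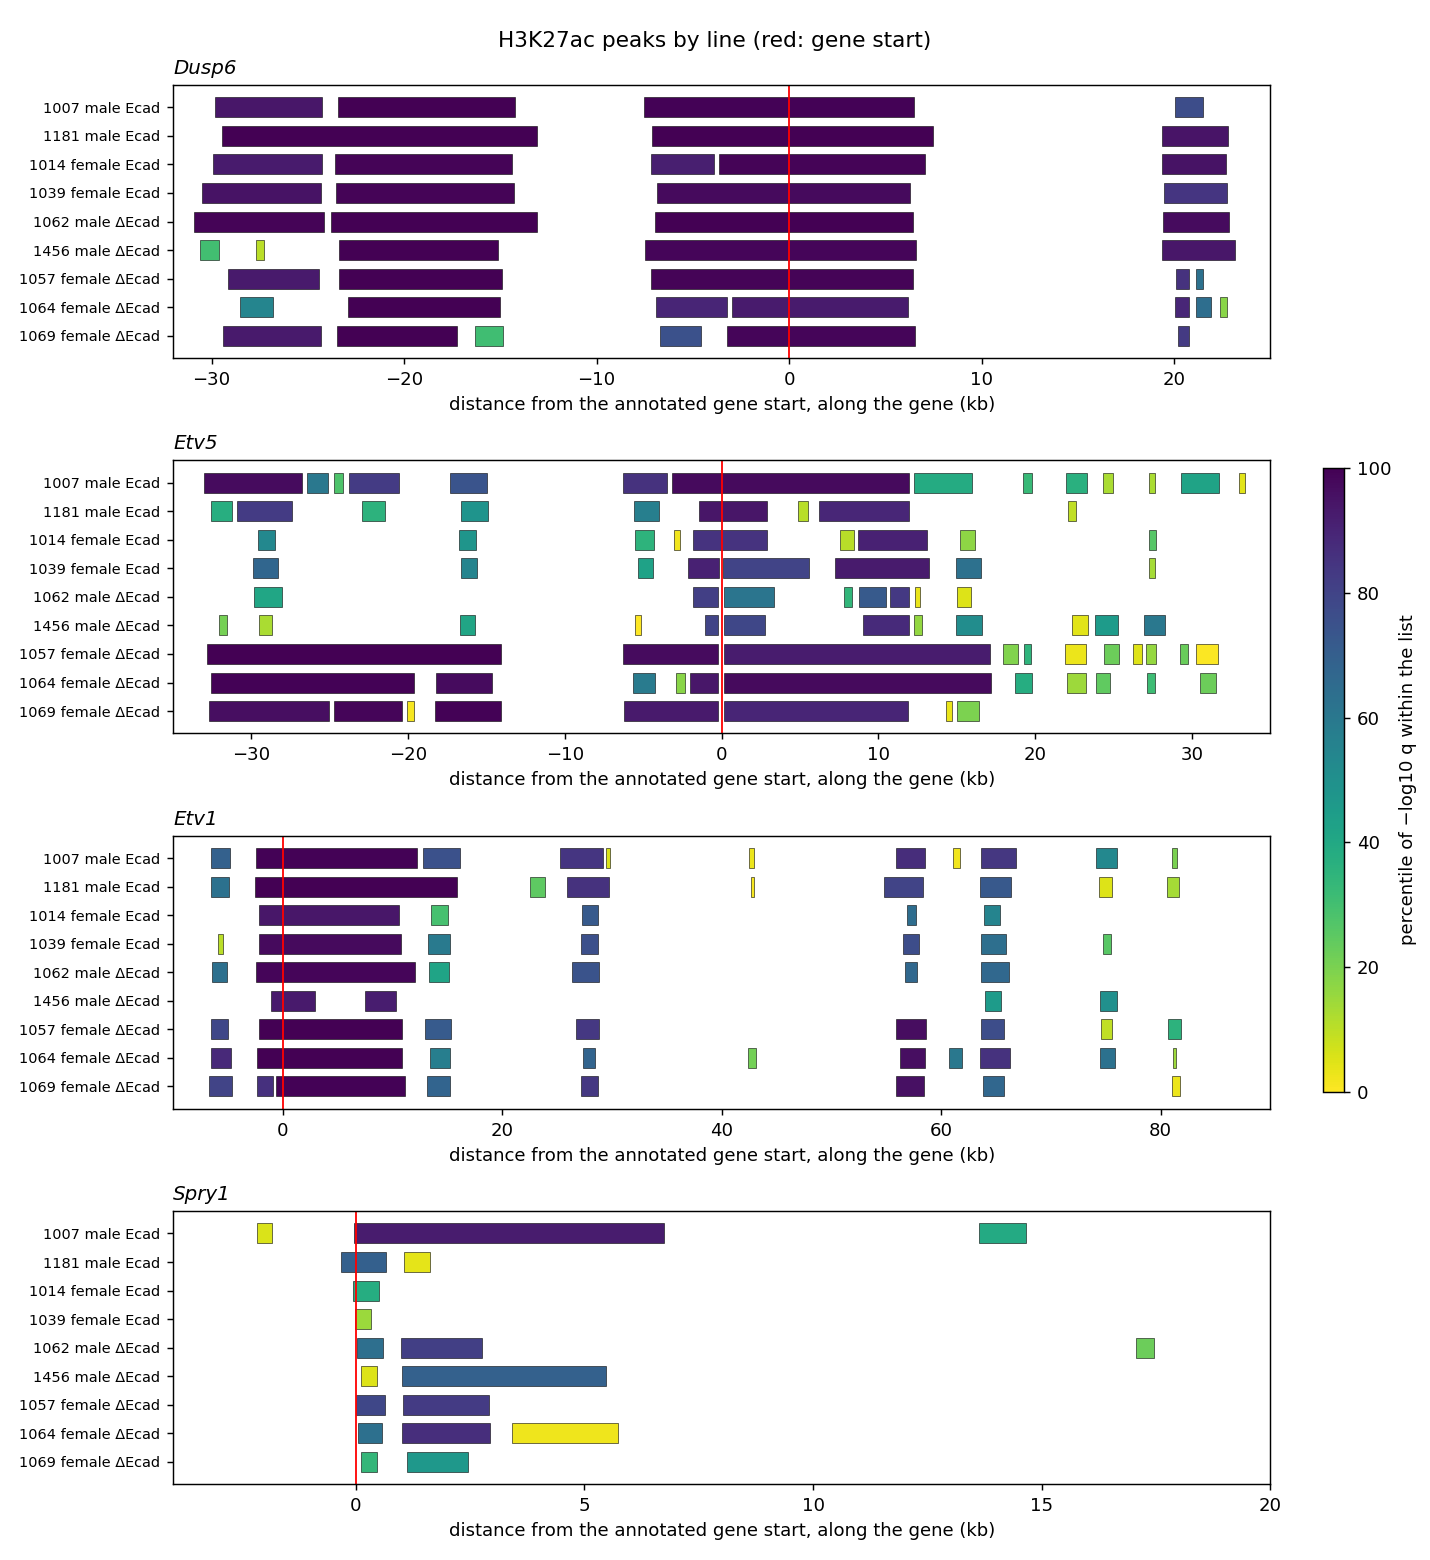
Peaks of each line (1 band per line) drawn to scale around the starts of Dusp6, Etv5, Etv1 and Spry1, with distance from the gene start in kb on the x axis, the start as a red line and the fill giving the percentile of −log10 q within the list. From −33.1 to −14.1 kb of Etv5 the female ΔEcad lines have 16.6 to 18.7 kb of dark, nearly continuous cover, and Spry1 has peaks between 1 and 3 kb in 7 of 9 lines.

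Etv1, another PEA3-group gene, at chr12:38779380-38870484 on the plus strand, was covered over 33.3 and 34.2 kb in male Ecad, 18.2 and 21.3 kb in female Ecad, 23.8 and 9.84 kb in male ΔEcad and 26.0, 26.5 and 24.1 kb in female ΔEcad lines. The female ΔEcad lines lay above both female Ecad lines, and both male ΔEcad lines lay below both male Ecad lines. A peak at +57.2 kb, in an element at another annotated start of the gene, was present in 8 of 9 lists with summits within 127 bp, the exception being Ma_1456. In the female ΔEcad lines the 3 summits fell at positions 38836605 to 38836608, with percentiles of 96.0 to 96.8 and fold enrichments of 30.0 to 38.2. In the other 5 lines the percentiles were 64.7 to 87.1 and the fold enrichments 11.9 to 17.3. This site was singled out after its values were seen and was not tested by itself.

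The sequence around it, chr12:38836433-38836732 on the plus strand of GRCm38, is printed because the peaks of the female ΔEcad lines there ranked above those of the other lines. It held none of the motifs searched.
Etv1 second start site: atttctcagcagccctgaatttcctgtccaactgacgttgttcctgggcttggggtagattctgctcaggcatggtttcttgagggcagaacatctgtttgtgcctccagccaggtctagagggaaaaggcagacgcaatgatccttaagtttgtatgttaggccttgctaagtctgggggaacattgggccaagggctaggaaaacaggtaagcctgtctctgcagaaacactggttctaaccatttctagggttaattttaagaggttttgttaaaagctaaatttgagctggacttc

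Etv4, the remaining PEA3-group gene, at chr11:101769742-101785371 on the minus strand, was covered over 8.78 and 2.53 kb in male Ecad, 7.12 and 5.64 kb in female Ecad, 7.06 and 5.52 kb in male ΔEcad and 7.02, 5.37 and 7.84 kb in female ΔEcad lines. The groups overlapped. An element at chr11:101771881-101773388, from +11.98 to +13.5 kb and at another annotated start of the gene, was covered over 1.19, 0.751 and 1.51 kb in female ΔEcad lines, over 1.19 kb in Ma_1007 and not at all in the other 5 lines. The difference was +0.950 kb (exact permutation test, two-sided, p = 0.0357, adjusted p over regions 0.211). Its summits in the 3 female ΔEcad lines lay within 29 bp, at percentiles of 49.3 to 67.5, and no other line placed a summit there. It was the only 1 of 142 summit sites of the feedback genes found in all 3 female ΔEcad lists and in no other list, and 0 sites were found in the 6 other lists alone. The peak of Ma_1007 nevertheless covered this place. Summit sites were not counted over the genome. Of all 59668 merged regions, 0.434% were in all 3 female ΔEcad lists and in no other, as were 0 elements of the feedback genes. The strongest Etv4 peak had a higher percentile in female than in male lines, 93.3 ± 4.94 against 77.4 ± 18.4, a difference of +15.8 points (exact permutation test, two-sided, p = 0.0397, adjusted p over all genes 0.4657). Ma_1181, a male line, was far below the rest at 50.6, and without it the difference was +6.87 points with p = 0.125 (exact permutation test).

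Over the whole set, the female ΔEcad comparison gave 2 feedback genes with higher cover, Spry4 and Etv5, and 1 with lower cover, Dusp6, at an unadjusted p under 0.05. The differences were positive for 5 genes and negative for 5, with a median of +0.306 kb, against a median of −1.04 kb and negative differences in 84.7% of all genes tested. As a log2 ratio of mean cover, female ΔEcad over the other lines, the median gene stood at −0.77, and all 10 feedback genes lay above it, from −0.43 for Spred1 and −0.30 for Dusp6 to 0.32 for Spred2 and 0.86 for Etv5. They stayed above the median of all genes when cover was taken per Mb of list, where that median was −0.34, and when lists were reduced to equal cover or equal length, where it was −0.35 and −0.71. Of all genes, 4.80% had a ratio at or above that of Etv5, and 8.84% did with lists reduced to equal cover. Widely covered genes dominate this set, and whether their ratios differ from those of other widely covered genes was not tested. No gene of the 14737 reached an adjusted p under 0.05 in this comparison by the exact permutation test, the smallest being 0.0781, while 4644 had an unadjusted p under 0.05.

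**Figure D4:**
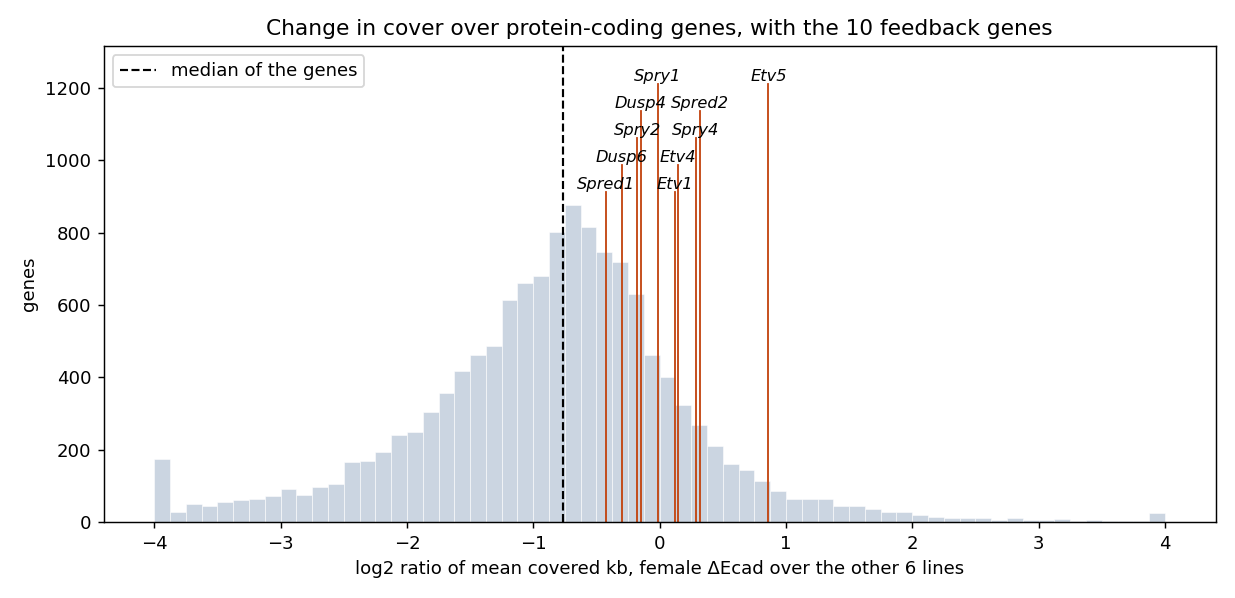
Number of protein-coding genes (y axis) by the log2 ratio of mean covered kb, female ΔEcad over the other 6 lines (x axis, end bins holding the values beyond the axis), with each feedback gene marked. The median of the 13218 genes is −0.77 and the 10 feedback genes sit between −0.43 and 0.86.

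For the comparison of ΔEcad with Ecad lines, Spred1 was the only feedback gene with an unadjusted p under 0.05 for covered length, and it was lower in ΔEcad lines, as were 19.8% of all genes tested, while 0.292% were higher. For the strongest peak it was Dusp6 alone, with percentiles of 99.9 ± 0.0537 in ΔEcad and 99.5 ± 0.332 in Ecad lines, a difference of +0.389 points (exact permutation test, two-sided, p = 0.0159, adjusted p over all genes 0.254). All values were above the 99th percentile, so the difference is small in rank, and with peaks of the gene body alone it became −1.27 points (p = 0.603, exact permutation test). For that measure 0.807% of all genes tested were higher in ΔEcad lines and 15.9% lower. The smallest adjusted p over all genes was 0.186 for covered length and 0.254 for the strongest peak.

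For the comparison of female with male lines, no feedback gene had an unadjusted p under 0.05 for covered length, the smallest being 0.0794 for Dusp6 with a difference of −2.97 kb (exact permutation test, two-sided). Of all genes tested, 0.326% were higher and 12.4% lower in female lines, 1869 genes in all. For the strongest peak, Etv4 was higher and Spred2 lower, as given above, against 0.964% of all genes higher and 9.26% lower. In all, 60 tests of covered length and strongest peak were made on the feedback genes, 8 had an unadjusted p under 0.05 and 0 an adjusted one. These 8 fell on 6 genes, and Dusp4, Spry1, Spry2 and Etv1 had none. Promoter calls gave 0 feedback genes in each comparison by Fisher's exact test, since every promoter was called in every list. The shares of all 21728 genes with an unadjusted p under 0.05 in that test were 4.51% for female ΔEcad against other lines, 3.03% for ΔEcad against Ecad and 1.62% for female against male, and after adjustment no gene passed.

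The effect of genotype was then compared between the sexes, as the female ΔEcad minus female Ecad difference less the corresponding male difference. This contrast was chosen after the data had been seen. Etv1 had +5.81 kb in females and −16.9 kb in males, a sex difference of +22.7 kb (exact permutation test of sex labels within genotype, two-sided, p = 0.0167, the smallest that 60 arrangements allow, adjusted p over all genes 0.256). Ma_1456, with 9.84 kb, set much of the male effect, and without it the sex difference was +15.8 kb with p = 0.0833 (exact permutation test). Etv5 had +14.1 kb in females and −10.5 kb in males, a sex difference of +24.6 kb (p = 0.05, adjusted p 0.384, same exact permutation test), and Spred2 had +3.30 and −1.97 kb, a sex difference of +5.28 kb (p = 0.0667, adjusted p 0.407, same exact permutation test). For these 3 genes every female ΔEcad line was above both female Ecad lines and every male ΔEcad line below both male Ecad lines, a pattern found in 1.89% of all genes tested. A positive sex difference with p under 0.05 was found in 1.63% of all genes tested and a negative one in 8.48%.

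The 10 windows held 65 merged elements, of which 26 were intronic, 13 at annotated starts, 11 downstream, 9 upstream and 6 exonic. Of these, 18 were marked in all 9 lists, and 18 in a single list, 9 of them in Ma_1007. Among the 42 elements present in at least 3 lists, 2 had more cover in the female ΔEcad lines at an unadjusted p under 0.05, those of Etv5 and Etv4 described above, and 3 had less, those of Dusp6, Spry2 and Spred2. Over all 31015 regions tested the shares were 3.86% higher and 15.7% lower. Joining summits up to 250 bp from the next gave 9 sites with a summit in all 9 lists, which spread over 53 to 378 bp and belonged to Dusp6, Spry2, Spred2, Etv1 and Etv4, and 61 of the 142 sites were seen in 1 list. The corresponding shares of summit sites over the genome were not counted.

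The other pathway genes were counted in the same way. In the female ΔEcad comparison of covered length, 0 core cascade genes were higher and 7 of 18 lower, 0 of the 8 tested other phosphatases and relatives passed in either direction, and 0 of 11 other ERK-responsive genes were higher and 3 lower, with the background of 29.9% lower given above. Among the core cascade genes past the threshold were Map2k2, encoding the kinase MEK2, at 2.03 kb in the female ΔEcad lines and 6.87 kb in the others, and Shc1, encoding a receptor adaptor, at 5.75 and 9.40 kb (each p = 0.0119, exact permutation test). The same p was reached by Ptpn11, encoding the phosphatase SHP2, at 1.24 and 3.55 kb, by Rasa1, a RAS GTPase-activating protein gene, at 0.962 and 2.83 kb, and by Fosl1, encoding the AP-1 protein FRA-1, at 1.37 and 4.97 kb (exact permutation test, two-sided).

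In ΔEcad against Ecad lines, 2 core cascade genes and 4 other ERK-responsive genes were lower and none of either list higher, beside the 19.8% of all genes tested that were lower. Ier3, an early response gene, had 14.3 kb against 17.7 kb and Hras 1.92 kb against 3.10 kb (each p = 0.00794, exact permutation test). Shc1 had 6.76 kb against 9.97 kb (p = 0.0159), the cyclin D1 gene Ccnd1 8.50 kb against 12.19 kb (p = 0.0397) and the ETS factor gene Elk3 10.8 kb against 19.0 kb (p = 0.0476, same exact permutation test). In female against male lines, 1 phosphatase gene and 2 other ERK-responsive genes were lower and none of these lists higher, beside 12.4% of all genes tested lower. Etv3 had 0 kb against 0.719 kb (p = 0.00794), Dusp1 3.63 kb against 7.12 kb (p = 0.0238), the core cascade gene Mapk3, encoding ERK1, 3.46 kb against 5.18 kb (p = 0.0397), and Epha4 0 kb against 1.24 kb (p = 0.0476, all by exact permutation test, two-sided).

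Promoter calls of some other pathway genes differed between groups, beside the shares of 4.51%, 3.03% and 1.62% of all genes given above. The Sos1 promoter, of a RAS exchange factor gene, and the Egr1 promoter, of an early response transcription factor gene, were each called in the 6 lines that are not female ΔEcad and in no female ΔEcad line (Fisher's exact test, two-sided, p = 0.0119 each). The Hras promoter was called in the 4 Ecad lines alone and the Etv3 promoter in the 4 male lines alone (Fisher's exact test, two-sided, p = 0.00794 each). The Araf promoter, of a RAF kinase gene, was called in 3 lines, all Ecad, and that of Elk1, an ETS factor gene, in 3 lines, all male (Fisher's exact test, two-sided, p = 0.0476 each). Among the rest, Ptpn11 and Rasa1 were called in 8 lists, Braf in 6, Ksr1 in 4, and Fosl1 and Epha2 in 1. None of these passed after adjustment over all genes, and none of the 10 feedback genes varied in this way.

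The promoter sequences of the feedback genes carried more CpG than the median promoter. Of the 10 genes, 7 had a promoter in the RefSeq table used, and their main starts carried 9 to 31 CpG in the 250 bases before the start, against a median of 6 over all promoters, while a further start of Etv1 carried 1. The motifs searched on both strands were ETS (CCGGAAG), AP-1 (TGANTCA), CRE (TGACGTCA), E-box (CACGTG), M-box (TCATGTG) and TCF/LEF (CTTTGAT). They were found in 6.91%, 6.75%, 1.55%, 6.02%, 3.25% and 3.21% of all 32851 promoters, in that order. Among the 7 genes the only match was an M-box before Spry1. The absence of these letters in a window says nothing of the factors themselves.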

How the data were processed

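H3K27ac ChIP–seq was done on 9 cultured mouse melanoma lines, 1 peak list per line, and sequenced from paired ends. The authors aligned reads to GRCm38 (mm10) with Bowtie2. Their processing notes name Bowtie2 2.4.5, MACS2 2.2.7.1 and deepTools 3.5.1.0.0, and the settings of the peak caller are not given in the sources used here. Libraries of input DNA, 4 in number, were not analysed here.

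The deposited lists are in the narrowPeak format, called per line and not pooled. Per peak the authors deposited a score, which is 10 times the −log10 q rounded down for nearly all peaks, the fold enrichment, the −log10 p, the −log10 q and the offset of the summit. The lowest deposited −log10 q was 5.00037, so weaker peaks were already removed by the authors. The −log10 q of a peak grows with depth, and its fold enrichment can depend on it. The paper gives a sequencing target per sample but not the depth that each line reached. Strength was therefore tested between lists only as the percentile of −log10 q within a list. Fold enrichments are printed as deposited without a test, and the limit on precision is the number of lines. No row was repeated within a list.

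Genes are the protein-coding genes of the autosomes and X in GENCODE release M21. Peaks were assigned to windows of the gene body plus 20 kb on either side. Covered length and the strongest peak were tested for genes with a peak in at least 3 lists by an exact permutation test over lines, two-sided by absolute difference, and promoter calls by Fisher's exact test, with Benjamini-Hochberg adjustment over all genes tested. Lines were grouped by the labels, which do not say whether lines share a mouse. The comparisons share lines with one another. Overlapping peaks of the 9 lists were merged into regions and tested in the same way, and summits up to 250 bp apart were joined into sites. Regions and the sex difference were added after the data had been seen. Alternatives were other windows, lists of equal length or cover, cover per Mb, a −log10 q of at least 10, the upper part of each list, no filter, and leaving out each line.

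The 10 genes and the pathway lists were chosen with earlier results of these data known. The text names all 10, pathway genes with an unadjusted p under 0.05 for covered length, at most 5 per comparison, and those with a promoter called in some lists. Some core cascade genes are counted in their list but not reported here by name. Spry3 is not among the annotated genes used. Sequences are from GRCm38, and promoters from a RefSeq table of the same build, in which Dusp4, Spry4 and Etv4 have no entry. Python 3.11.15, numpy 2.4.6, pandas 2.3.3, scipy 1.17.1 and matplotlib 3.10.9 were used.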

Additional observations from a re-analysis of the deposited data

Results flagged for a closer look

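Single lines lay far from the rest of their group, by Dixon's criterion for the gap to the nearest value, in 4 of 50 groups of values, where chance gives about 1 in 20. Spry1 cover was 8.164 kb in Ma_1007 and 1.53 kb or less in the other Ecad lines. Spred1 cover was 10.015 kb in Ma_1064 and at most 6.54 kb in the other ΔEcad lines. Spred2 cover was 5.279 kb in Ma_1062, below the other male lines at 8.79 kb and above. Etv1 cover was 9.84 kb in Ma_1456, against at least 23.8 kb in the other ΔEcad lines.

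For 3 genes every female ΔEcad line was covered over more kb than both female Ecad lines, and every male ΔEcad line over less than both male Ecad lines. The differences of the means also had opposite signs in the sexes for Dusp6, Spry1 and Spry2, without this separation of the lines. The sex difference was +22.7305 kb for Etv1 (exact permutation test, p = 0.0167, adjusted p 0.256), +24.616 kb for Etv5 (exact permutation test, p = 0.05, adjusted p 0.384) and +5.27533 kb for Spred2 (exact permutation test, p = 0.0667, adjusted p 0.407). Among all genes tested, 1.89% had every female ΔEcad line above and every male ΔEcad line below the Ecad lines of their sex. None of the 3 passed after adjustment over all genes.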

How the results depend on the processing

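Feedback genes with an unadjusted p under 0.05 were counted again under each alternative. For covered length in the female ΔEcad lines against the rest there were 3, and 1 with peaks in the gene body only (Etv5), with flanks of 50 kb (Etv5) and with a −log10 q of at least 10 (Dusp6). For ΔEcad against Ecad lines there was 1, and 2 with flanks of 50 kb (Dusp6 and Spred1), 2 per Mb of list cover (Spry2 and Spry4), and 0 with lists of equal length, a −log10 q of at least 10, the upper part of each list or lists of equal cover. For female against male lines and the strongest peak there were 2, and 1 (Spred2) with the gene body only or flanks of 50 kb. The sex difference had 1, and 4 per Mb of list cover and 3 with lists of equal cover. The Dusp6 cover difference turned to +0.0422 kb per Mb of list, and its strongest peak to −1.27 points in ΔEcad against Ecad lines within the gene body, where the strongest Etv5 peak gave +2.08 points in female ΔEcad lines (exact permutation test, p = 0.560). In these cases the cause was not tested.

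With each line left out in turn, the count for covered length ranged from 1 to 2 in female ΔEcad against the rest (2 without Ma_1007, Ma_1064 or Ma_1069), from 0 to 1 in ΔEcad against Ecad (1 only without Ma_1014, Ma_1039 or Ma_1064) and from 0 to 1 in female against male (1 without Ma_1181 or Ma_1456). For the strongest peak it ranged from 0 to 1 in female ΔEcad against the rest (1 without Ma_1007 or Ma_1062), from 0 to 1 in ΔEcad against Ecad (0 without Ma_1062, Ma_1456, Ma_1057 or Ma_1069) and from 0 to 1 in female against male (0 without Ma_1181, Ma_1014, Ma_1064 or Ma_1069). The sex difference ranged from 0 to 3 genes (0 without any one female ΔEcad line, 2 without Ma_1007, 3 without Ma_1181). Without a female ΔEcad line the groups are of equal size, and exchanging all sex labels changes only the sign of the difference. The smallest two-sided p is then above 0.05 for every gene, so the count of 0 does not show dependence on these lines. The elements ranged from 3 to 7 against 5 (3 without Ma_1014 or Ma_1057). Counted over the rechecks of the single differences named, and not over the differences themselves, 80 kept their side of the threshold, 67 lost it and 2 turned.

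The limits are the 3 to 6 lines per arm, with which no gene passed adjustment, the unknown depth reached by each line, and the unequal length of the lists. Weak peaks below the deposited minimum cannot be seen, so absence from a list is not absence of the mark.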
